A study of Mus musculus with 20 samples.

Results

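Cells recovered from mouse melanomas by selection for CD45 were compared with unseparated melanomas of the same genotype, gene by gene over the whole array. The labels call these cells the CD45+ (immune) population. The comparison used 8 of the 20 arrays in the series: 3 of CD45+ cells and 5 of complete tumors, all from the genotype called B. They were chosen by their labels, so no measured value entered the choice, and every gene could be tested. B mice carry Tyr::CreERT2, a tamoxifen-activated Cre recombinase driven by the promoter of the melanocyte enzyme tyrosinase, and 2 BrafCA alleles that express BRAF V600E after recombination. All groups received 4-hydroxytamoxifen on the skin at 5 mg/ml on postnatal days 2.5 and 3.5 and 6.24 kJ/m² of UVB on day 3.5, and tumors were taken at endpoint size. The labels give neither the age at endpoint nor the sex. The CD45+ cells were obtained after mechanical and enzymatic dissociation and magnetic positive selection, and the complete tumors are not described as dissociated. Dissociation and selection therefore cannot be told apart in this comparison alone. 3 arrays of the dissociated cells left after selection (CD45-, B) were used beside it. The same contrast was also read in the genotype B;p38α (3 CD45+ and 3 complete arrays), whose recombined melanocytes lack p38α in addition.

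CD45 is a tyrosine phosphatase on the surface of nearly all nucleated blood cells, and its gene is Ptprc. Melanomas of the skin grow among fibroblasts, vessels, nerves, fat, hair follicles and the thin muscle layer beneath the skin, so a piece of whole tumor carries RNA of all of these, and of the macrophages, dendritic cells, lymphocytes, neutrophils and mast cells within it. Macrophages take up debris and present antigen on MHC class II, T cells read it, and both answer damage or handling with fast transcription of cytokines and of the immediate early genes, which need no new protein synthesis. In RNA from a mixture, fewer cells of a type and less RNA per cell cannot be told apart.

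The arrays yielded a log2 level for each of 19504 genes with a symbol, where a difference of 1 is a change by a factor of 2. The array medians of the 8 arrays ran from 6.86 to 7.02. CD45+ replicate 2 had the narrowest spread of values among them (interquartile range 3.41, against 3.62 to 3.83 in the other 7). CD45- replicate 1 stood further apart, with an interquartile range of 2.95 and a median correlation with the other CD45- arrays of 0.911. The mean of 3 Y-linked genes was 8.67 to 9.29 in complete replicates 1 and 4 and in CD45+ replicate 1, 5.36 in CD45+ replicate 3 and 2.76 to 4.30 in the other 4 arrays. The labels call the arrays biological replicates but do not tie each one to a separate animal. P-values therefore cover only the variation among these arrays, and some of that variation may be technical.

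Ptprc marked the selection. Its log2 level was 9.46, 9.68, 10.46, 10.17 and 10.18 in complete tumors 1 to 5 and 11.74, 12.11 and 12.14 in the CD45+ cells. Every CD45+ array lay above every complete tumor. The difference was 2.00 (SE 0.24), with an adjusted p of 0.0010 in limma and a two-sided exact permutation p of 0.0357, the smallest that 56 splits allow. In CD45- cells Ptprc read 9.95, 9.66 and 9.67, within the range of the complete tumors, and its difference from them was -0.23 (adjusted p = 0.66).

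Across all genes, 3420 passed an adjusted p of 0.05 by limma (17.5% of those tested). Of these, 1852 were higher in CD45+ cells (9.5%) and 1568 lower (8.04%). The median difference over all genes was -0.01. Differences above 1 were found in 1114 of the higher and 535 of the lower genes, and differences above 2 in 200 and 73. At an unadjusted p under 0.05 there were 6352 genes (32.6%). The count depended on single arrays: it was 1635 without CD45+ replicate 2 and 1486 without CD45+ replicate 3. The genes named below kept their call when each of the 8 arrays was left out in turn, except where a larger adjusted p is given.

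For this and the next lists up to the immediate early genes, the share of all genes called higher in CD45+ cells was 9.5%. All 15 measured pan-leukocyte genes were higher in CD45+ cells, with a median difference of 1.63. 14 of the 15 measured macrophage markers were higher, with a median of 1.16. Ikzf1, a transcription factor of lymphoid development, read 6.80, 8.01, 8.07, 7.53 and 8.47 in complete tumors and 10.16, 10.29 and 10.28 in CD45+ cells, a difference of 2.47 (SE 0.33, adjusted p = 0.0016). Laptm5, a lysosomal membrane protein of leukocytes, differed by 1.92 (SE 0.27), and Cd52, a small surface glycoprotein, by 1.93 (SE 0.30). The mean level of the pan-leukocyte list was 10.45 ± 0.04 (SD, n = 3) in CD45+ cells, 8.87 ± 0.35 (SD, n = 5) in complete tumors and 8.41 ± 0.19 (SD, n = 3) in CD45- cells. The CD45+ arrays were close together and clear of the rest, while the CD45- and complete ranges overlapped, at 8.23 to 8.60 and 8.44 to 9.36.

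**Figure D1:**
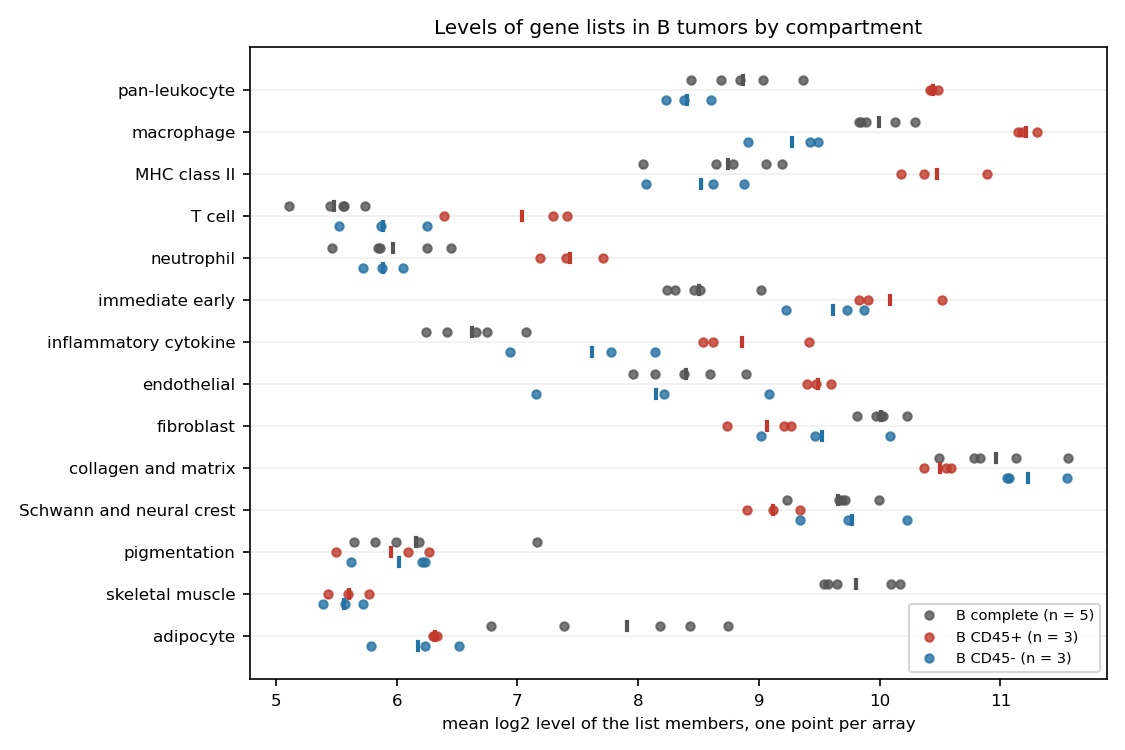
Mean log2 level of the measured members of 14 gene lists in each B array, with complete tumors in gray (n = 5), CD45+ cells in red (n = 3) and CD45- cells in blue (n = 3), and group means as vertical bars. Leukocyte lists sit to the right in CD45+ cells, the immediate early list lies higher in both dissociated populations, and the skeletal muscle list is near 5.6 in both of them against 9.80 in complete tumors.

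PU.1 is an ETS transcription factor needed for macrophage development, and its binding sites share a GGAA core. The letters GAGGAAG, searched on both strands in the 250 bases before each RefSeq gene start (GRCm38.p6), were present for 4 of 10 macrophage genes with a promoter in the table and 4 of 12 pan-leukocyte genes, against 3244 of 27025 genes overall (12.0%). Stretches are shown for the members of each list that hold it and had the largest called rises. Members without it rose as well, since 15 of 15 pan-leukocyte and 14 of 15 macrophage genes were called higher. A part of PU.1 in these rises was not tested. Each is read on the gene's strand, with the match in capitals (CTTCCTC where it lies on the opposite strand) and up to 30 bases on either side, cut at the gene start.
Fcgr1 (chr3:96293989-96294055, minus strand): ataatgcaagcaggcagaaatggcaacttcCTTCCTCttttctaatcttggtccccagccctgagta
Trem2 (chr17:48346330-48346396, plus strand): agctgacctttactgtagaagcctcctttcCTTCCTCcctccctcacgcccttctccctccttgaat
Fcgr3 (chr1:171059404-171059440, minus strand): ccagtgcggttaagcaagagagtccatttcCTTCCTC
Laptm5 (chr4:130913247-130913313, plus strand): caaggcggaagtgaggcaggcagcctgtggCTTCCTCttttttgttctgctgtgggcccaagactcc
Dock2 (chr11:34783906-34783944, minus strand): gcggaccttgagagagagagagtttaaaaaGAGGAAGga
Vav1 (chr17:57279059-57279099, plus strand): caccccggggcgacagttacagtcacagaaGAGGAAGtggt
The differences of these genes between CD45+ cells and complete tumors were 1.39 for Fcgr1, the high-affinity IgG receptor, 1.29 for Trem2, a lipid-sensing receptor, and 0.91 for Fcgr3, a low-affinity IgG receptor. They were 1.89 for Dock2, which drives leukocyte migration, and 1.77 for Vav1, an exchange factor downstream of antigen receptors. A match is a stretch of letters and not a measured binding site.

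Among macrophage genes Cx3cr1, the receptor for fractalkine, moved furthest. It read 6.56, 6.98, 8.03, 7.67 and 8.22 in complete tumors and 10.47, 10.39 and 10.51 in CD45+ cells. The CD45+ arrays lay within 0.12 of each other and above all tumors, with a difference of 2.97 (SE 0.35, adjusted p = 0.00097). Csf1r, the receptor for the macrophage growth factor CSF1, read 10.91, 11.05, 11.12, 10.87 and 11.40 in complete tumors against 12.49, 12.40 and 12.47, a difference of 1.38 (SE 0.16, adjusted p = 0.00084). Adgre1, an adhesion receptor of mature macrophages, rose by 1.16 (SE 0.20), and the microglia and macrophage protein gene Aif1 by 1.47 (SE 0.27).

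Of the 13 resident and alternatively activated macrophage genes, 4 rose, 0 fell and 9 did not pass, beside 9.5% and 8.04% of all genes. Their differences were split, with 7 positive and 6 negative. The median was 0.24, or 0.12 and 0.15 without complete replicates 4 and 1. Without either of these replicates, 1 gene was called lower. Mgl2, a galactose-type lectin, rose by 1.91 (SE 0.31), and Mrc1, the mannose receptor, by 1.08 (SE 0.18). In CD45- cells the same list had a median of -0.98 from complete tumors, with 4 of 13 genes lower (0.4% of all genes were called lower in that comparison), and the CD45+ minus CD45- median was 2.06, with 8 of 13 higher (2.79% of all genes). Without CD45+ replicate 3, 2 of the 13 genes were higher against complete tumors.

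Monocyte markers were higher for 4 of 8 measured genes and neutrophil markers for 7 of 12, with medians of 1.11 and 1.72. Ccr2, the receptor that brings monocytes out of the marrow, read 9.17, 9.47, 10.70, 10.46 and 10.32 in complete tumors and 11.69, 11.88 and 11.94 in CD45+ cells, a difference of 1.81 (SE 0.34, adjusted p = 0.0077). Chil3, a chitinase-like protein of monocytes and macrophages, rose by 2.19 (SE 0.23). S100a9, a calcium-binding protein of neutrophil granules, read 5.12, 6.01, 5.95, 5.70 and 7.46 in complete tumors against 8.72, 8.54 and 8.73, a difference of 2.62 (SE 0.43, adjusted p = 0.0042). Csf3r, the G-CSF receptor, rose by 2.31 (SE 0.30). The groups did not overlap for any of these 4 genes, as was so for 12.7% of all genes in this direction and 25.3% in either.

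Mast cell markers rose in 4 of 11 cases, beside 9.5% of all genes, with a median of 1.08. Kit, the receptor for stem cell factor on mast cells and melanocytes, read 6.21, 6.96, 6.09, 6.48 and 6.55 in complete tumors and 9.01, 8.68 and 8.73 in CD45+ cells. That difference of 2.35 (SE 0.21, adjusted p = 0.00028) was the largest of the list, and Gata2, a transcription factor of mast cells and progenitors, followed with 1.54 (SE 0.21). The calls on the list members Cpa3 and Fcer1a were less stable, with adjusted p up to 0.126 and 0.0562. That of Cpa3 was lost without complete replicate 1, 3 or 5 or any 1 of the CD45+ arrays. That of Fcer1a was lost without CD45+ replicate 2. The mast cell count was 9 without complete replicate 2 and 2 without CD45+ replicate 2.

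All 12 measured genes of the MHC class II list were higher, with a median of 1.67, and the median was -0.29 in CD45- cells. H2-Ab1, a class II beta chain, read 9.31, 10.24, 10.14, 10.30 and 10.82 in complete tumors and 13, 12.39 and 12.48 in CD45+ cells. Cd86, a costimulatory ligand for T cells, read 7.09, 7.03, 7.49, 7.14 and 7.0 against 9.41, 9.25 and 9.43. The groups were well apart in both genes, with differences of 2.46 (SE 0.31, adjusted p = 0.0012) and 2.21 (SE 0.16, adjusted p = 9.6e-05). H2-DMa, part of the peptide loader of class II, rose by 1.89 (SE 0.38).

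Dendritic cell markers were higher for 7 of 13 genes, with a median of 1.44. Ccl22, a chemokine of activated dendritic cells, read 6.13, 7.13, 7.16, 5.48 and 6.26 in complete tumors and 8.75, 9.20 and 9.04 in CD45+ cells, a difference of 2.56 (SE 0.37, adjusted p = 0.0022). Xcr1, a chemokine receptor of cross-presenting dendritic cells, rose by 1.82 (SE 0.40) and Flt3, a growth factor receptor of their precursors, by 1.71 (SE 0.34). Clec9a, a receptor for dead cells on the same subset, rose by 1.89 (SE 0.54, adjusted p = 0.041), but its adjusted p was up to 0.113 and it lost its call without complete replicate 1, 2 or 5 or any 1 of the CD45+ arrays.

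Receptors for microbial and damage signals rose nearly throughout, with 16 of 17 Toll-like and C-type lectin genes higher and a median of 1.87. Tlr9, which senses unmethylated DNA, read 5.83, 6.49, 6.75, 6.75 and 7.27 in complete tumors and 9.66, 9.54 and 9.32 in CD45+ cells, a difference of 2.89 (SE 0.28, adjusted p = 0.00041). Clec5a and Clec4d, myeloid activating lectins, rose by 2.34 (SE 0.26) and 2.27 (SE 0.26). Tlr2, a receptor for bacterial lipoproteins, rose by 2.04 (SE 0.20).

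T cell genes rose in 11 of 14 cases, beside 9.5% of all genes, with a median of 1.3. In CD45- cells their median from complete tumors was 0.32. Between CD45+ and CD45- cells 2 of the 14 were called higher in CD45+ cells, beside 2.79% of all genes. Cd3e, a signaling chain of the T cell receptor, read 4.65, 5.44, 5.71, 5.12 and 5.74 in complete tumors and 7.53, 8.23 and 8.12 in CD45+ cells, a difference of 2.63 (SE 0.28, adjusted p = 0.00059). Ctla4, an inhibitory receptor of activated and regulatory T cells, read 3.47, 3.49, 3.88, 3.22 and 2.95 against 4.50, 7.16 and 7.01, and Icos, a costimulatory receptor, 5.65, 5.98, 5.93, 6.09 and 5.92 against 7.01, 9.37 and 8.90. In both genes CD45+ replicate 1 was the lowest of the selected arrays and still above all tumors. The mean level of the list was 6.40 in CD45+ replicate 1 and 7.41 and 7.30 in replicates 2 and 3. The count of T cell genes was 6 without CD45+ replicate 2 and 5 without replicate 3.

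NK and cytotoxic genes rose in 5 of 12 cases (median 1.40) and B cell genes in 4 of 9 (median 0.95). Klrk1, the activating receptor NKG2D, differed by 1.91 (SE 0.37) and Gzmb, a granule protease, by 1.5 (SE 0.27). Cd22, an inhibitory co-receptor of B cells, read 5.48, 6.04, 5.89, 5.68 and 6.28 in complete tumors and 7.63, 7.59 and 7.64 in CD45+ cells, a difference of 1.75 (SE 0.19, adjusted p = 0.00068). Cd79b, a chain of the B cell receptor, rose by 1.77 (SE 0.32). The NK count was 8 without CD45+ replicate 1 and 3 without replicate 2 or 3, and the B cell count was 2 without complete replicate 5 or without CD45+ replicate 2 or 3.

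Checkpoint genes were higher for 9 of 11, with a median of 1.42, and the count was 6 to 8 with 1 array left out. In CD45- cells their median from complete tumors was 0.42. Between CD45+ and CD45- cells 3 of the 11 were called higher in CD45+ cells, beside 2.79% of all genes. Havcr2, which encodes TIM-3 of exhausted T cells and myeloid cells, read 4.63, 4.73, 6.08, 5.45 and 4.62 in complete tumors and 8.14, 7.59 and 7.70 in CD45+ cells, a difference of 2.71 (SE 0.34, adjusted p = 0.0014). Btla, an inhibitory receptor of lymphocytes, rose by 1.94 (SE 0.32). Pdcd1, which encodes PD-1, read 4.83, 4.66, 5.36, 4.75 and 4.87 against 5.58, 5.43 and 5.68, a difference of 0.67 (SE 0.19, adjusted p = 0.036) whose call was lost without any 1 of the arrays other than complete replicate 3, with an adjusted p up to 0.132.

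**Figure D2:**
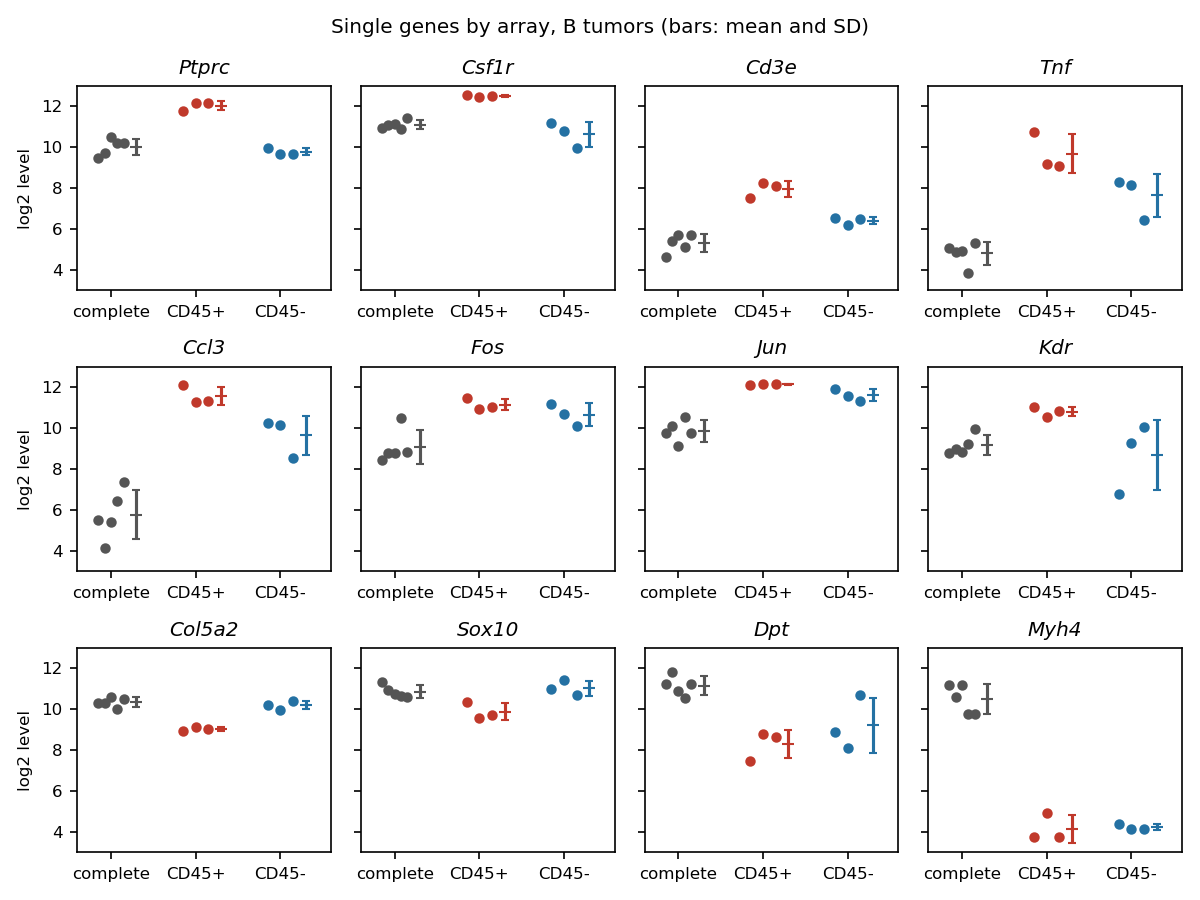
Log2 level of 12 genes in each complete tumor (gray, n = 5), CD45+ (red, n = 3) and CD45- (blue, n = 3) array of B tumors, with the mean and SD beside each group. Ptprc, Csf1r and Cd3e are high in CD45+ cells alone, Tnf, Ccl3 and Jun lie above all complete tumors in both dissociated populations, Fos in CD45- cells overlaps complete tumor 4, and Myh4 is low in both.

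The largest rises of all genes were those of Ccl3 and Tnf. Ccl3, a chemokine for monocytes and lymphocytes, read 5.53, 4.17, 5.42, 6.46 and 7.37 in complete tumors and 12.07, 11.27 and 11.29 in CD45+ cells, a difference of 5.75 (SE 0.60, adjusted p = 0.00054). Tnf, the cytokine TNF, read 5.09, 4.90, 4.96, 3.87 and 5.32 against 10.74, 9.18 and 9.05, a difference of 4.83 (SE 0.43, adjusted p = 0.00025). CD45+ replicate 1 was the highest array in both genes. The list of inflammatory cytokines and their regulators had 14 of 20 genes higher, 0 lower and a median of 2.00.

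Other members with large differences were Cxcl2, a neutrophil chemokine (3.82, SE 0.63), Il1b, the cytokine IL-1β (3.70, SE 0.47), and Nlrp3, the inflammasome sensor (3.49, SE 0.35). Tnfaip3, a brake on NF-κB, rose by 3.48 (SE 0.26). Cd69, an early activation antigen of lymphocytes, read 2.85, 4.36, 4.60, 5.52 and 4.58 in complete tumors and 8.68, 9.20 and 8.88 in CD45+ cells, a difference of 4.54 (SE 0.48, adjusted p = 0.00057). Hcar2, a receptor for hydroxy fatty acids, rose by 4.31 (SE 0.48), Rgs1, a regulator of G-protein signaling in lymphocytes, by 4.23 (SE 0.60) and Nfkbid, a nuclear IκB protein, by 3.36 (SE 0.25). Gm6377 (3.99, SE 0.37), Tagap (3.37, SE 0.28), Ccrl2 (3.16, SE 0.36) and the macrophage elastase Mmp12 (3.22, SE 0.62) completed the highest ranks with Nr4a3, an orphan nuclear receptor (3.82, SE 0.31).

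Several of these genes were also higher in CD45- cells, which went through the same dissociation. Their comparison with the same complete tumors called 103 genes (0.528%), of which 25 were higher (0.128%). Ccl3 read 10.23, 10.12 and 8.53 in CD45- cells, 3.84 above complete tumors (adjusted p = 0.046), and Tnf 8.31, 8.17 and 6.43, 2.81 above them (adjusted p = 0.035). All 3 CD45- arrays exceeded all complete tumors in both genes. Hcar2 was 2.55 higher (adjusted p = 0.017) and Nr4a3 2.69 higher (adjusted p = 0.039), while Cd69 was 2.92 higher without passing (adjusted p = 0.067). Both comparisons share the complete tumors, so these values are only set side by side. The count was 60, 63, 60 and 67 without complete replicate 1, 2, 3 and 5 and 181 without CD45- replicate 3.

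Between the dissociated populations 569 genes differed (2.92%), 545 of them higher in CD45+ cells. Of the 20 cytokine genes, 3 were among them, with a median of 1.42. Ccl3 was 1.91 higher in CD45+ than in CD45- cells (adjusted p = 0.12) and Tnf 2.02 higher (adjusted p = 0.20). Without CD45- replicate 1 the cytokine median was 1.79, and the count of all genes between the dissociated populations was 0 without CD45+ replicate 3, 225 and 248 without CD45+ replicates 2 and 1 and 354 without CD45- replicate 2.

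Immediate early genes rose in 19 of 22 cases, with a median of 1.54 in CD45+ cells. In CD45- cells the median was 0.96 from the same tumors, with 1 gene past the threshold, and the CD45+ minus CD45- median was 0.51, with 1 gene past it. Fos, a subunit of AP-1, read 8.44, 8.80, 8.80, 10.50 and 8.83 in complete tumors, 11.44, 10.93 and 11.01 in CD45+ cells and 11.17, 10.66 and 10.10 in CD45- cells. Complete tumor 4 stood far above the other tumors and overlapped the CD45- range, and the CD45- difference of 1.57 did not pass (adjusted p = 0.15). The CD45+ difference was 2.05 (SE 0.41, adjusted p = 0.010).

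Jun, its partner in AP-1, read 9.73, 10.10, 9.09, 10.52 and 9.75 in complete tumors, 12.09, 12.10 and 12.12 in CD45+ cells and 11.89, 11.54 and 11.30 in CD45- cells. Both dissociated populations lay above all tumors, by 2.26 in CD45+ cells (SE 0.28, adjusted p = 0.0011) and by 1.74 in CD45- cells (adjusted p = 0.049). Fosb rose by 2.83 (SE 0.64), Zfp36, which destabilizes cytokine transcripts, by 2.40 (SE 0.36), and Atf3, a stress-induced repressor, by 2.31 (SE 0.33). Klf2, a quiescence factor of lymphocytes and endothelium, rose by 2.13 (SE 0.28) and was 1.59 higher in CD45+ than in CD45- cells (adjusted p = 0.030). Egr2, Nr4a2 and Maff did not pass, with differences of 0.78, 0.99 and 0.35.

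The cAMP response element, TGACGTCA, which reads the same on both strands, binds the inducible factor CREB. It was found in the 250 bases before the start of 3 of 19 immediate early genes with a promoter in the table, against 478 of 27025 genes (1.77%). It is shown for Dusp1 and Btg2, which rose by 2.25 (SE 0.39) and 1.72 (SE 0.23), and the third gene was Maff. Dusp1 encodes a phosphatase that turns off p38 and JNK, and Btg2 an antiproliferative protein. The match is in capitals.
Dusp1 (chr17:26508578-26508645, minus strand): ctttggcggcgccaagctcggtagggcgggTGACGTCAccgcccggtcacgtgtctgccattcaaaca
Btg2 (chr1:134079284-134079351, minus strand): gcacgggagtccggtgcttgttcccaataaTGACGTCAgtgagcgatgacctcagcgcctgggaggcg

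Of 9 heat shock genes 2 rose and 2 fell, beside 9.5% and 8.04% of all genes. The median of 0.17 was 0.06 without complete replicate 5 and 0.11 without CD45+ replicate 1. Hspa1a, an inducible HSP70 chaperone, read 9.79, 9.79, 9.08, 8.83 and 7.35 in complete tumors, 12.02, 11.37 and 11.29 in CD45+ cells and 10.86, 11.18 and 10.14 in CD45- cells. The CD45+ difference was 2.59 (SE 0.51, adjusted p = 0.0091). Hspa1b, a near-identical copy with which it may share probes, differed by 2.61, so the pair counts as uncertain. The mitochondrial chaperonins Hspd1 and Hspe1 fell by 0.90 and by 0.73, with adjusted p up to 0.0877 and 0.0884 when 1 array was left out. Neither fall passed without CD45+ replicate 2 or 3, and that of Hspd1 was also lost without CD45+ replicate 1 or complete replicate 3.

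**Figure D3:**
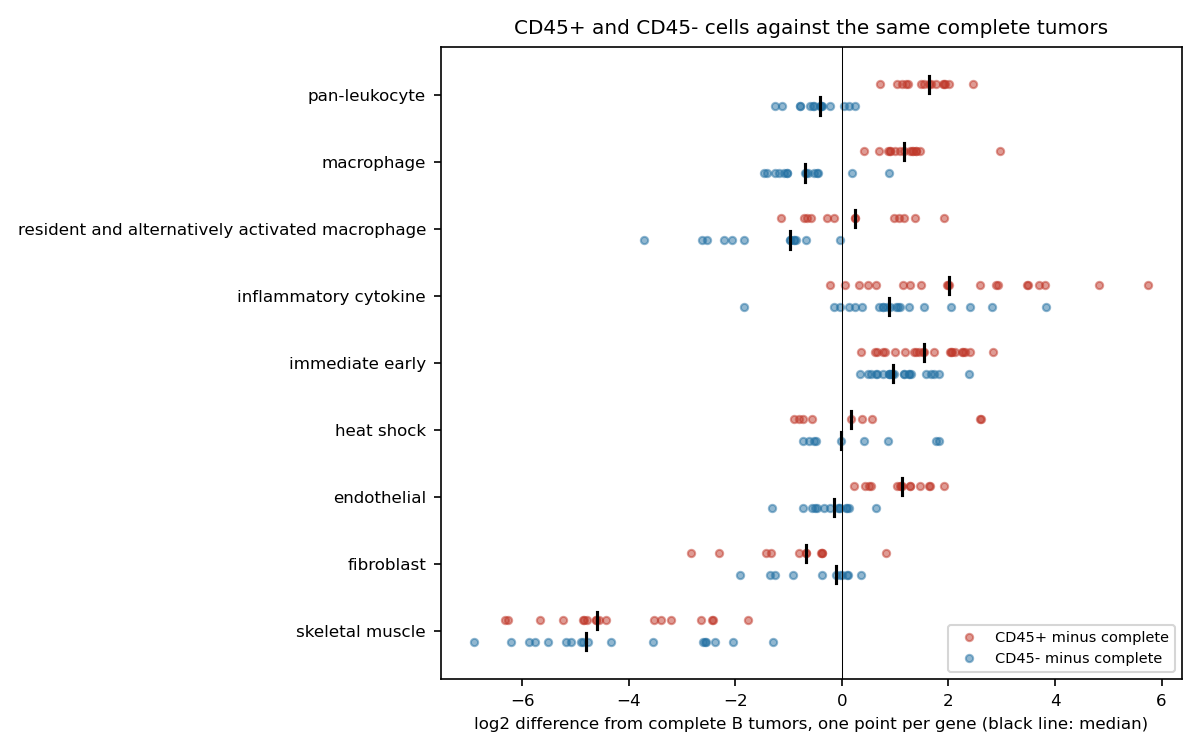
Log2 difference from the 5 complete B tumors for each measured member of 9 lists, in CD45+ cells (red) and CD45- cells (blue), with medians as black lines. The 2 populations lie on opposite sides of 0 for pan-leukocyte genes (1.63 and -0.40), on the same side for immediate early genes (1.54 and 0.96), and together far to the left for skeletal muscle (-4.59 and -4.81).

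Skeletal muscle gave the largest losses. All 18 measured genes of the list fell, with a median of -4.59 against -0.01 over all genes. Myh4, the fast IIb myosin heavy chain, read 11.15, 10.56, 11.17, 9.73 and 9.76 in complete tumors and 3.77, 4.93 and 3.76 in CD45+ cells, a difference of -6.32 (SE 0.42, adjusted p = 6.7e-05). Mylpf, a fast regulatory light chain, read 11, 11.01, 11.14, 10.61 and 10.56 against 4.46, 4.19 and 5.17, a difference of -6.26 (SE 0.24, adjusted p = 4.0e-06). Every complete tumor lay above every CD45+ array in both genes, by more than 4 units. Mylpf read 3.46, 3.52 and 4.92 in CD45- cells.

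The list was also lower in CD45- cells, with a median of -4.81 and 16 of 18 genes lower, beside 0.4% of all genes. Between CD45+ and CD45- cells 0 of 18 were called (median 0.07). Only 2.92% of all genes were called there, so the count of 0 is near that share. The smallest fall in CD45+ cells was that of Ckm, muscle creatine kinase (-1.77, SE 0.22). Further large falls were those of Myl1 (-5.66, SE 0.30), Tnnt3 (-5.24, SE 0.23) and the calcium pump Atp2a1 (-4.79, SE 0.30). The perinatal myosin Myh8, outside the list, fell as well (-4.99, SE 0.28). Acta1, skeletal actin (-4.62, SE 0.20), and the giant scaffold Ttn (-4.62, SE 0.31) fell by like amounts. Klhl41 and Myot, sarcomere proteins also outside the list, fell by 4.16 and by 4.18.

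**Figure D4:**
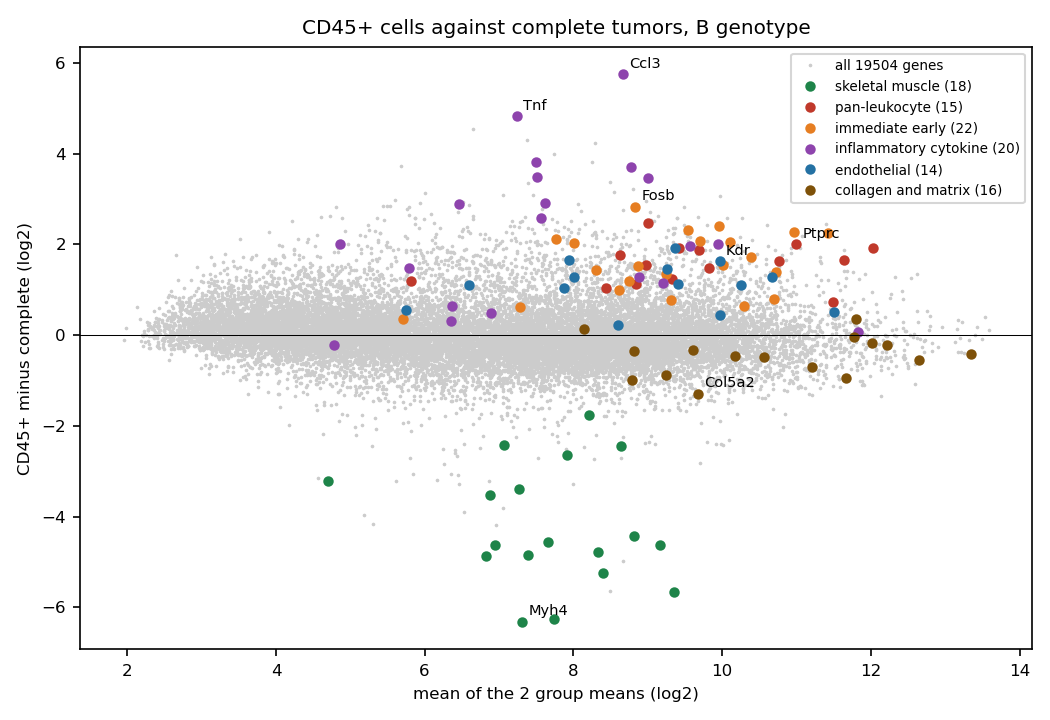
Log2 difference, CD45+ minus complete, against the mean of both group means for all 19504 genes (gray) and for 6 lists in color, B genotype. Skeletal muscle genes form the lower tail between -6.32 and -1.77, while Ccl3 (5.75) and Tnf (4.83) top the plot.

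Adipocyte genes fell in 4 of 12 cases, beside 8.04% of all genes, with a median of -1.02. Car3, a carbonic anhydrase of fat and muscle, read 11.49, 11.85, 10.69, 11.59 and 10.97 in complete tumors and 6.62, 4.76 and 5.67 in CD45+ cells, a difference of -5.63 (SE 0.40, adjusted p = 8.8e-05). Adipoq, the fat hormone adiponectin, read 9.15, 10.08, 6.19, 9.54 and 7.38 in complete tumors and 5.49, 5.28 and 4.98 in CD45+ cells. The tumors themselves were spread over several units, with tumor 3 the lowest, and the difference was -3.22 (SE 0.78, adjusted p = 0.022). The adipocyte count was 1 without CD45+ replicate 2 or 3, and the adjusted p of Adipoq then reached 0.0807.

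Fibroblast genes fell in 4 of 11 cases (median -0.67, or -0.37 without CD45+ replicate 1) and collagen and matrix genes in 2 of 16 (median -0.43). The share called lower over all genes was 8.04%. Dpt, the matrix protein dermatopontin, read 11.20, 11.77, 10.87, 10.53 and 11.22 in complete tumors and 7.49, 8.76 and 8.62 in CD45+ cells, a difference of -2.83 (SE 0.34, adjusted p = 0.0010). Mfap5, a microfibril protein, fell by 2.30 (SE 0.20). Col5a2, a chain of collagen V, read 10.30, 10.28, 10.56, 9.98 and 10.49 against 8.94, 9.12 and 9.04, a difference of -1.29 (SE 0.17, adjusted p = 0.0015). CD45- cells read 10.19, 9.97 and 10.38, the lowest of them just below the lowest tumor and the others within the tumors' range.

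Of the 16 matrix genes, 14 had negative differences and 14 did not pass. Col1a1, the main collagen of skin, read 11.57, 12.17, 11.62, 11.23 and 12.37 in complete tumors and 11.46, 11.90 and 11.90 in CD45+ cells, with a difference of -0.04 (SE 0.27, adjusted p = 0.93). The mean level of the matrix list was 10.37 to 10.59 in CD45+ cells, 10.49 to 11.56 in complete tumors and 11.05 to 11.55 in CD45- cells. The part of RNA from stromal cells in the other differences was not tested. Without CD45+ replicate 2 or 3 the fibroblast count was 2, and the matrix count was 1 without either of them or without complete replicate 2, 3 or 5.

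Among 15 pigmentation genes 3 fell and 1 rose, with a median of -0.09 that was 0.30 without complete replicate 1, 0.08 without CD45+ replicate 1 and -0.41 without CD45+ replicate 2, so its sign is not settled. Of all genes tested, 8.04% fell and 9.5% rose. In addition, among 14 Schwann and neural crest genes, 2 fell and 1 rose, with a median of -0.63. Sox10, the transcription factor of both lineages, read 11.32, 10.90, 10.72, 10.63 and 10.58 in complete tumors, 10.33, 9.57 and 9.71 in CD45+ cells and 10.95, 11.37 and 10.66 in CD45- cells. CD45+ cells were below all tumors, by 0.96 (SE 0.23, adjusted p = 0.022), and the adjusted p was up to 0.0909 without CD45+ replicate 2 or 3.

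Mlana, a melanosome antigen, read 8.11, 7.20, 7.06, 7.56 and 6.68 in complete tumors and 5.49, 5.94 and 5.99 in CD45+ cells, a difference of -1.52 (SE 0.30, adjusted p = 0.0096). Tyr, the pigment enzyme whose promoter drives the Cre, read 6.07, 4.62, 3.86, 4.91 and 4.00 against 3.71, 4.50 and 4.11, a difference of -0.59 that did not pass (adjusted p = 0.41). Rab27a, which carries melanosomes and also secretory granules of leukocytes, was the member that rose (1.15, SE 0.17). Without CD45+ replicate 3, 1 pigmentation gene was lower. The Schwann count was 0 without CD45+ replicate 2 or 3, 4 without CD45+ replicate 1 and 5 without complete replicate 5.

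Endothelial genes were higher, with 11 of 14 called in CD45+ cells, beside 9.5% of all genes, 0 lower and a median of 1.12. Kdr, the main receptor for VEGF, read 8.77, 8.97, 8.84, 9.22 and 9.96 in complete tumors, 11.01, 10.54 and 10.80 in CD45+ cells and 6.77, 9.25 and 10.03 in CD45- cells. All CD45+ arrays exceeded all tumors, by 1.63 (SE 0.27, adjusted p = 0.0045), whereas the CD45- arrays spread over both sides of them. Flt1, another VEGF receptor, rose by 1.92 (SE 0.35), Cldn5, a tight junction protein, by 1.66 (SE 0.31), and Cdh5, the cadherin of endothelial junctions, by 1.28 (SE 0.25).

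The endothelial list gave no call between CD45+ and CD45- cells, near the share of 2.92% called over all genes there. Its median in that comparison was 1.35, or 0.92 without CD45- replicate 1. Its CD45- median against complete tumors was -0.15, or 0.31 without that array. In the complete tumors the level of the list ran from 7.96 to 8.90 and in CD45+ cells from 9.39 to 9.60. The count in CD45+ cells was 7 without CD45+ replicate 2 and 6 without replicate 3. Of the 12 pericyte and smooth muscle genes 1 was higher and 2 were lower (median 0.19, between 0.07 without complete replicate 4 and 0.42 without complete replicate 5). Over all genes the shares were 9.5% higher and 8.04% lower. The lower count was 0 without CD45+ replicate 2 or 3 and 1 without complete replicate 3.

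Keratinocyte genes were highest in complete tumor 1. The mean level of that list was 8.29 there and 4.92 to 5.60 in the other 4 tumors, and 4.92 to 6.06 in CD45+ cells. 1 of its 19 genes rose and 0 fell, beside 9.5% and 8.04% of all genes. The list median of -0.17 turned to 0.43 without complete replicate 1 and to 0.19 without CD45+ replicate 1. Krt5, a basal keratin, read 9.91 in tumor 1 and 4.38 to 4.93 in the others, against 4.11, 6.46 and 6.88 in CD45+ cells, and its difference of 0.10 did not pass (adjusted p = 0.97). The riser was Cdh1, E-cadherin, which Langerhans cells also carry (1.60, SE 0.39, adjusted p = 0.023, and up to 0.0671, with the call lost without any 1 of the CD45+ arrays).

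An erythroid gene was higher in both dissociated populations. Alas2, the erythroid enzyme of heme synthesis, read 7.13, 6.43, 6.80, 6.77 and 7.09 in complete tumors, 8.02, 9.36 and 9.74 in CD45+ cells and 8.72, 8.99 and 11.76 in CD45- cells. Each dissociated array lay above all tumors, with differences of 2.20 in CD45+ cells (SE 0.35, adjusted p = 0.0039) and 2.98 in CD45- cells (adjusted p = 0.071). Alas2 was 1 of 3 measured erythroid genes and the only one of them called, and 0 of 6 platelet genes were called. Pf4, a chemokine of platelets and macrophages, differed by 0.15 (adjusted p = 0.65).

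Of 17 mitosis genes 2 were called lower (median -0.42, or -0.72 and -0.24 without CD45+ replicates 1 and 2). Of 14 DNA replication genes 1 was called lower (median -0.25, between -0.45 without CD45+ replicate 1 and -0.09 without complete replicate 1). Over all genes, 8.04% were called lower and 9.5% higher. The calls on Top2a (-1.31), Ttk (-1.17) and Tyms (-0.92) were lost without CD45+ replicate 2 or 3, with adjusted p up to 0.0698, 0.162 and 0.07. That of Ttk was also lost without complete replicate 1, 3 or 5, and without CD45+ replicate 1 the counts were 4 and 3. Mki67, the antigen of cycling cells, differed by 0.05 (SE 0.26, adjusted p = 0.92). The ERK output list, read because BRAF V600E drives ERK, had 2 of 11 genes higher (median 0.17, or 0.08 without CD45+ replicate 1 and 0.30 without CD45+ replicate 3). The count was 1 without complete replicate 1, 3 or 4 or any 1 of the CD45+ arrays. Its members included Etv5, an ETS factor, at 1.24 (SE 0.24) and Dusp6, a feedback phosphatase, at -0.22 (adjusted p = 0.32).

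In the p38 pathway 2 of 13 genes rose and 1 fell, and 1 rose without complete replicate 1, 2, 3 or 5 or CD45+ replicate 2 or 3. For this and the next lists, the shares over all genes were 9.5% higher and 8.04% lower. Mapk14, which encodes p38α, read 10.16, 10.06, 10.04, 10.15 and 9.89 in complete tumors and 10.31, 10.39 and 10.47 in CD45+ cells, a difference of 0.33 (SE 0.14, adjusted p = 0.13). Mapkapk3, a kinase activated by p38, rose by 1.23 (SE 0.24), and Mapk12, the muscle form p38γ, fell by 1.05 (SE 0.17). The glucose transporter Slc2a1 rose by 1.91 (SE 0.31) within a hypoxia and glycolysis list of which 3 of 14 rose and 1 fell, with 1 higher without CD45+ replicate 3. Of the 13 genes of lysosomes and lipid handling, 3 rose and 1 fell (median 0.29). Interferon-response genes were mixed, with 5 of 18 higher and 2 lower. Rsad2, an antiviral radical enzyme, rose by 1.98 (SE 0.33), Cxcl10, a T cell chemokine, by 1.22 (SE 0.22), and Ifit1, an RNA-binding effector, differed by 0.05 (adjusted p = 0.89). The higher interferon count was 3 without CD45+ replicate 2 and 2 without replicate 3, and the lower count was 0 without complete replicate 1 or 3 or any 1 of the CD45+ arrays and 1 without complete replicate 4.

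The same contrast in B;p38α, from arrays not used above, called 1830 genes (9.38%), 1133 higher (5.81%) and 697 lower (3.57%), and 5069 at an unadjusted p under 0.05 (26%). The count was 914 and 637 without complete replicates 2 and 3, 756 and 740 without CD45+ replicates 1 and 2, and 761 with these 2 most alike arrays averaged as 1. Of the 1852 genes higher in B, 1747 (94.3%) had the same sign there, and 786 were called, which is 42.4% of the B genes and 69.4% of the B;p38α genes. Of the 1568 genes lower in B, 1458 (93%) had the same sign and 247 were called, or 15.8% and 35.4%. 1 gene in each direction was called with the opposite sign. Across all genes Pearson's r of the 2 sets of differences was 0.666, given as a description since genes are not independent.

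Pan-leukocyte genes rose in 12 of 15 cases in B;p38α (median 1.73), cytokine genes in 15 of 20 (2.56) and immediate early genes in 20 of 22 (2.13). Ccl3 differed by 4.93 and Tnf by 4.96. Skeletal muscle was negative for all 18 genes, with a median of -2.87, but 0 passed there. The level of the muscle list ran from 5.59 to 10.53 in the complete B;p38α tumors and from 9.54 to 10.17 in the complete B tumors, so the B;p38α tumors spread far more widely.

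A direct test of whether the contrast differed between genotypes called 0 of 19504 genes (0%) in limma, with 1862 at an unadjusted p under 0.05 (9.55%). Peg3, an imprinted zinc finger gene, read 9.02, 8.86, 9.07, 8.47 and 9.62 in complete B tumors and 6.70, 6.85 and 7.01 in B CD45+ cells. Its difference was -2.15 in B (adjusted p = 0.00068) and -0.08 in B;p38α (adjusted p = 0.82), and the difference between them of 2.08 had an adjusted p of 0.18. Hspb8, a small heat shock protein, followed with -2.03 and 0.47 (adjusted p of the difference 0.26). Jchain, the joining chain of secreted antibodies, differed by 3.07 in B (adjusted p = 0.031, up to 0.103, with the call lost without complete replicate 3 or 5 or CD45+ replicate 2 or 3) and by -1.15 in B;p38α (adjusted p = 0.48), with no genotype call. The interaction count was 49 without B complete replicate 4, 30 without B CD45+ replicate 1 and 2 without B;p38α CD45+ replicate 3.

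**Figure D5:**
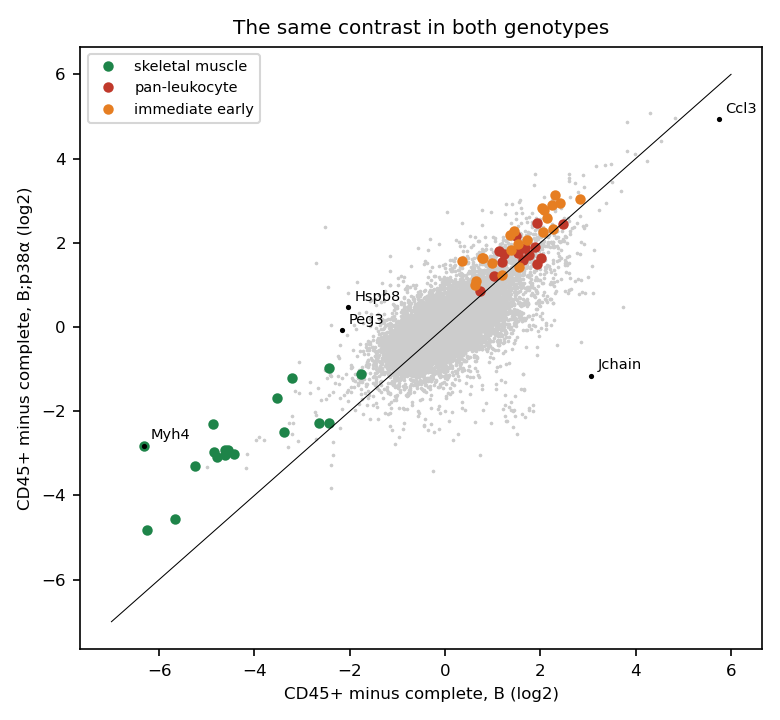
Log2 difference, CD45+ minus complete, in B (horizontal) and B;p38α (vertical) for all genes (gray), with 3 lists in color and the line of equal values. Immediate early and pan-leukocyte genes lie near or above the line, skeletal muscle genes are negative in both genotypes (medians -4.59 and -2.87), and Peg3, Hspb8 and Jchain are labeled.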

How the data were processed

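Per the labels' protocols, RNA was purified with Direct-Zol columns and biotin-labeled for hybridization. The authors deposited log2 levels, and RMA is the tool named per the submitters' processing notes, without a version. Background correction, normalization and summarization are parts of RMA and preceded deposition. Because such normalization gives all arrays a like distribution, a change in total RNA per sample cannot be seen. The table held 21244 rows and 0 columns of other samples. The platform annotation gave 19570 rows 1 symbol, 0 several and 1674 none, and all 19570 matched RefSeq of GRCm38.p6. The row of highest mean over all 20 arrays was kept per symbol, which left out 66 rows and gave 19504 genes. No filter was applied. The number of arrays limits the precision.

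Groups came from the labels. Each comparison was fitted on its own arrays by limma 3.58.1 (lmFit, eBayes; R 4.3.3), and p-values were adjusted by Benjamini-Hochberg over all genes, with a threshold of 0.05. The genotype difference was an interaction over 14 arrays. Every adjusted p is from limma. Differences are CD45+ minus complete unless stated. 35 lists, with 455 measured genes, are described by counts and medians, without a set test. Members, lists and rules were chosen with earlier results of these data known. The genes named were drawn from the 15 genes each way with the largest called differences, up to 4 members per list with the largest called differences (or 2 where fewer than 2 were called), the first gene of each list, Ptprc, 6 genes each way for the genotype difference and members a result turns on. Fcgr3, Trem2, Dock2 and Vav1 were added for their promoter match, and the genes of the last part after their values were seen. The fits were checked on simulated data. Promoters were read from a RefSeq table, and Python 3.11.15 with matplotlib 3.10.9 made the figures. Replicates 1 and 2 of the B;p38α CD45+ cells were more alike than the third and were averaged in an alternative added after seeing the data. The other alternatives were all 6 groups in one fit, a replicate block, array weights, a minimum difference of 1, removal of dim genes under the 30th percentile, every row, repeated quantile normalization, a trended robust variance, a Y-linked covariate, and leaving out each array.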

Additional observations from a re-analysis of the deposited data

Results flagged for a closer look

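In 245 sets of values from complete B tumors (210 genes and 35 list levels), 13 held a tumor whose distance from the nearest other tumor was large against the whole range. Chance alone gives about 1 such set in 20, and the sets are not independent.

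Tumor 4 was the one apart for genes of the early response, with Fos at 10.5 (the other 4 at 8.44 to 8.83), Fosb at 9.62 (6.62 to 7.11) and Ier2 at 8.77 (7.88 to 8.13), and for the small heat shock protein Hspb1 at 8.33 (9.47 to 9.70). Tumor 1 was apart for Krt5 at 9.91 (4.38 to 4.93) and the level of the keratinocyte and hair list at 8.29 (4.92 to 5.60), and it had the lowest Myh1 at 8.51 (10.13 to 10.72). Tumor 2 was highest for the plasma cell gene Mzb1 at 6.27 (4.63 to 5.10), Atp2a1 at 11.58 (10.35 to 10.68) and 1700110I01Rik at 6.62 (6.22 to 6.30), and lowest for Tlr2 at 8.17 (8.68 to 8.87). Tumor 3 was highest for Cd86 at 7.49 (7.0 to 7.14) and lowest for the endothelial factor Sox17 at 4.82 (5.50 to 5.76).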

How the results depend on the processing

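With the replicate number as a block, 1648 genes were called (1041 higher, 607 lower), although same-numbered arrays did not deviate together (correlations 0.005, 0.1 and -0.005, and 1 of 3 CD45+ arrays closest to its own number). Array weights gave 7281 (3716 and 3565), and a minimum difference of 1 gave 103 (65 and 38). Leaving out 1 array gave 1486 to 3407, with 933 to 1879 higher and 553 to 1528 lower (951 lower without complete replicate 3). The genotype difference gave 32 with the block, 532 with array weights and 0 to 49 with 1 array left out. B;p38α gave 761 when CD45+ replicates 1 and 2 were averaged, an alternative chosen after seeing the data, and 637 to 1806 with 1 array left out. CD45- against complete gave 17 with the block and 60 to 181 with 1 array left out, and CD45+ against CD45- gave 0 and 0 to 588, also added after seeing the data. The cause of these shifts was not tested. No count or called gene reversed, and of 177 named genes that were called, 42 kept the call throughout. Of the 35 list medians, 4 changed sign with 1 array left out (keratinocyte, pigmentation, platelet and Y-linked), and with array weights the keratinocyte and pigmentation medians were 0.21 and 0.16. With the block, 5 of 12 MHC class II, 4 of 13 dendritic cell, 5 of 11 checkpoint and 6 of 14 endothelial genes were higher. Ptprc kept a difference of 1.87 to 2.13 with 1 array left out, where no exact p can reach 0.05.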

Other observations

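The genes described here were picked after their values were seen, so their differences are descriptions. Several receptors and effectors outside the lists were far higher in CD45+ cells. Fcgr4, an activating IgG receptor, read 7.04, 6.81, 8.0, 7.20 and 7.38 in complete B tumors and 9.75 to 10.39 in CD45+ cells, a difference of 2.76 (SE 0.27). Ifng, the cytokine interferon gamma, read 3.27, 3.65, 3.94, 4.84 and 4.36 against 6.46, 6.91 and 7.23, a difference of 2.85 (SE 0.34). Cd83, a marker of mature dendritic cells, differed by 2.59 (SE 0.23) and the chemokine receptor Cxcr4 by 2.72 (SE 0.19). The NK receptor gene Klrb1b differed by 3.09 (SE 0.50), Prdm1, the plasma cell factor BLIMP1, by 2.91 (SE 0.47) and Slc7a11, the cystine transporter, by 2.79 (SE 0.28). CD45+ cells were above all complete tumors in each of these genes. In CD45- cells their differences from the tumors were, in the same order, 0.25, 0.50, 0.08, 0.97, 0.81, 0.94 and 1.67, and none passed. Between CD45+ and CD45- cells, Slc7a11 (1.13, adjusted p = 0.49) and Klrb1b (2.28, adjusted p = 0.084) did not pass, and the others did.

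Among the losses, Fcna, a ficolin of macrophages, read 9.90, 8.69, 8.95, 7.39 and 9.46 in complete B tumors, 6.58, 5.96 and 5.97 in CD45+ cells and 3.96, 4.96 and 4.00 in CD45- cells. Its differences were -2.71 (adjusted p = 0.0062) and -4.57 (adjusted p = 0.0033). In B;p38α its difference was 1.51 (adjusted p = 0.41). Zim1, an imprinted neighbor of Peg3, fell by 3.29 (SE 0.31) in B and by 2.86 in B;p38α. B CD45- cells differed from complete tumors in Zim1 by -2.44 (adjusted p = 0.019). Igf2, an imprinted growth factor, was 2.21 higher (SE 0.32) in B and 0.66 higher in B;p38α (adjusted p = 0.40). Between B CD45+ and CD45- cells Igf2 differed by 1.51 without passing (adjusted p = 0.27). Single genes with large falls, picked for their size, were Clec3b (-2.67, SE 0.29), the matrix proteoglycan Ogn (-2.42, SE 0.35), the protease Mmp3 (-2.41, SE 0.37) and the growth factor Fgf7 (-2.35, SE 0.33). Their CD45- differences from complete tumors were -1.29, -1.65, -0.99 and -0.82, and none passed. Cdkn2a, the tumor suppressor locus of p16 and ARF, read 9.53, 8.99, 9.59, 9.42 and 9.51 in complete tumors and 5.62, 7.87 and 8.10 in CD45+ cells, a difference of -2.21 (SE 0.49, adjusted p = 0.015). In CD45- cells Cdkn2a read 8.87, 6.21 and 9.06, a difference from complete tumors of -1.36 that did not pass (adjusted p = 0.27).

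A family of near-identical genes, Btbd35f, rose for 16 of 22 measured copies (median 2.14), and since probes may be shared among copies these are uncertain. The family's mean level was 4.11 to 4.54 in the complete B tumors, 4.96, 7.86 and 6.20 in CD45+ replicates 1 to 3 and 9.03, 5.90 and 5.41 in CD45- replicates 1 to 3. The highest CD45+ and CD45- arrays were those with the narrowest range of values in their groups, and the part of that range in the family's levels was not tested. Without CD45+ replicate 2, 8 copies rose and the median was 1.34. In B;p38α, 2 copies rose and the median was 1.06.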
